A study of Rattus norvegicus with 43 samples.

Results

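The anterior pituitaries of 43 male rats differed widely in the level of complement component C3, and the 14 glands with the most C3 RNA were compared here with the 14 glands with the least. Every animal was an F2 offspring of Copenhagen (COP) females crossed with ACI males, and each carried from 9 weeks of age a silastic implant with 5 mg of the synthetic estrogen diethylstilbestrol (DES) until it was killed at 21 weeks after 12 weeks of treatment. All 43 animals also received 50 mg/kg bromodeoxyuridine (BrdU), a label of newly made DNA, 4 hours before death, and no untreated animal or parental strain is part of the comparison. The study chose the 43 glands for extreme weight, 22 of them heavy and 21 light, but the labels do not tell which gland belongs to which extreme. The 28 arrays were chosen by ranking the deposited value of the C3 probe set, so the sides are a ranking of a measured value and not a treatment, and C3 itself is given as a description with no test. Each of the 28 arrays is 1 animal.

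C3 intensity ran from 1072.5 to 2331 (median 1471) on the 14 high arrays and from 52.9 to 294.1 (median 144) on the 14 low arrays, a 10.2-fold difference between the medians. On the scale used throughout, log2(intensity + 16), which is called the level below, C3 averaged 10.53 ± 0.33 (SD, n = 14) on the high side and 7.38 ± 0.66 (SD, n = 14) on the low side. The other 15 arrays lay in between, at 295.2 to 997.4. The last array on the high side had an intensity of 1072.5 and the next one below it 997.4. The last array on the low side had 294.1 and the next one above it 295.2, so the lower boundary runs through arrays of nearly equal C3.

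The sides were not balanced over the animal numbers in the labels. Of the 14 high arrays, 13 came from animals 23 to 43 and 1 from animals 1 to 22 (animal 18). Of the 14 low arrays, 12 came from animals 1 to 22 and 2 from animals 23 to 43 (animals 31 and 36). Over all arrays, C3 averaged 8.12 ± 1.15 (SD, n = 22) in animals 1 to 22 and 10.10 ± 0.79 (SD, n = 21) in animals 23 to 43. The labels do not say what the numbers stand for. The difference between the C3 sides and the difference between the number ranges were therefore largely the same contrast, and the main results are given both without and with the number range as a term in the fit.

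**Figure D1:**
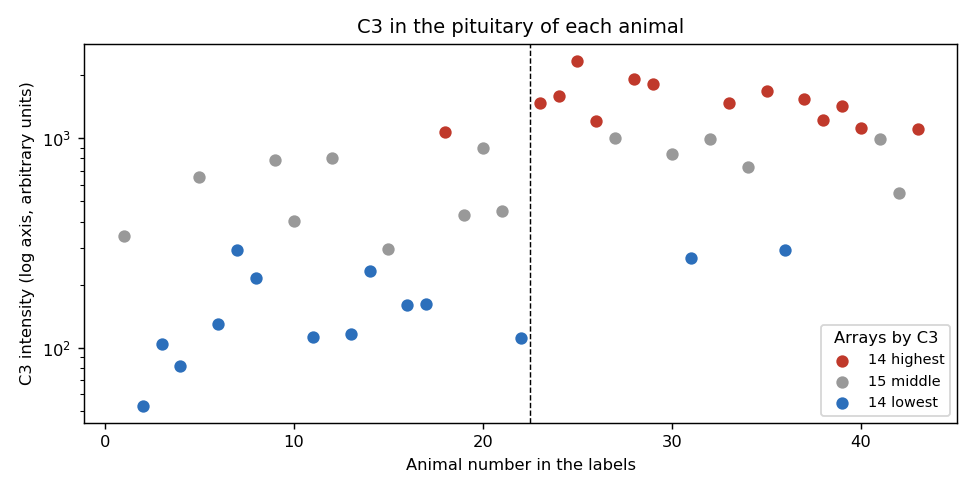
C3 intensity (vertical log axis, arbitrary units) against the animal number in the labels (horizontal axis), 1 point for each of 43 arrays, with the 14 highest in red, the 15 middle in grey and the 14 lowest in blue. The dashed line divides animals 1 to 22 from 23 to 43, and only animal 18 to its left is red and only animals 31 and 36 to its right are blue.

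C3 is the central protein of the complement system. Its cleavage by convertases coats targets with C3b and releases C3a, and it is made in the liver and also locally by macrophages, fibroblasts and epithelial or endocrine cells under cytokine and steroid control. Tissue macrophages, with the microglia of the brain as the best known example, carry receptors for complement fragments, for immunoglobulin and for lipids, and depend on the growth factor receptor Csf1r. In the anterior pituitary, hormone cells (lactotrophs, somatotrophs, gonadotrophs, thyrotrophs and corticotrophs) lie among folliculostellate cells, vessels and resident macrophages, and long estrogen treatment expands the lactotrophs.

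The promoters of C3 and of some genes whose levels followed C3 closely, with the animal-number range taken into account, are shown here. P2ry12 followed C3 most closely in this way, but its promoter is not shown, so the genes shown are not the closest ones in order. The promoters shown are from RefSeq, build GRCr8. Each has 300 bases, from 250 before to 50 after the annotated start, written 5′ to 3′ on the gene's own strand. Capitals mark matches on either strand to 6 motifs, namely NF-kB (GGG, any 3 bases, TTCC), C/EBP (TTGCNNAA), the STAT site GAS (TTCNNNGAA), ISRE (TTTC, any 2 bases, TTTC), the estrogen response element (GGTCA, any 3 bases, TGACC) and PU.1 (GAGGAAG), the last chosen after values were seen. None of the capital stretches shown overlaps another. C3 lies at chr9:2201290-2201589 (minus strand), Anxa3 at chr14:13085548-13085847 (minus), Trem2 at chr9:20151730-20152029 (minus), Ctss at chr2:185775146-185775445 (plus) and Dnase1l3 at chr15:19352302-19352601 (plus), the first 4 being C3 and genes with a positive slope on it and the last the gene with the smallest adjusted p among those with a negative slope.
C3: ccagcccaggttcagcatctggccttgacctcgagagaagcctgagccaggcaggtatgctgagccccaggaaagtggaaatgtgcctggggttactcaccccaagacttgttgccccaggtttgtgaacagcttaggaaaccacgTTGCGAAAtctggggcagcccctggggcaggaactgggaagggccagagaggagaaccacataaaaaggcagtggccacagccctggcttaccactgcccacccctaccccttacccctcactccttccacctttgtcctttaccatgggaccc
Anxa3: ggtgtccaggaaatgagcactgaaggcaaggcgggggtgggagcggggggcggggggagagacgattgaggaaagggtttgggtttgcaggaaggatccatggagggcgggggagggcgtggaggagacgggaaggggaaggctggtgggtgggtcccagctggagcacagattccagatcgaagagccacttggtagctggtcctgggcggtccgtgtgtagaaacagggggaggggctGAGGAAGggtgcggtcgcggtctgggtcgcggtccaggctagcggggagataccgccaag
Trem2: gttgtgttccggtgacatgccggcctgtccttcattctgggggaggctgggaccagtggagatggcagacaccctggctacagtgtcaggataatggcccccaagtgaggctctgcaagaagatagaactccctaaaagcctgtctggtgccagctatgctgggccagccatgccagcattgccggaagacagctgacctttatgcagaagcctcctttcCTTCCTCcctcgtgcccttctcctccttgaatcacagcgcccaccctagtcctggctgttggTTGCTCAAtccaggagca
Ctss: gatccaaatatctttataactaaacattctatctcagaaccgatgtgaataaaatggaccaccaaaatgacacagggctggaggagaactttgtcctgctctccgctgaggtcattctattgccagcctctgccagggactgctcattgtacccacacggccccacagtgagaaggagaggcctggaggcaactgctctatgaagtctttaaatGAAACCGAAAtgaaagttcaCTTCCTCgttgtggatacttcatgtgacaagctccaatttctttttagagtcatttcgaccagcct
Dnase1l3: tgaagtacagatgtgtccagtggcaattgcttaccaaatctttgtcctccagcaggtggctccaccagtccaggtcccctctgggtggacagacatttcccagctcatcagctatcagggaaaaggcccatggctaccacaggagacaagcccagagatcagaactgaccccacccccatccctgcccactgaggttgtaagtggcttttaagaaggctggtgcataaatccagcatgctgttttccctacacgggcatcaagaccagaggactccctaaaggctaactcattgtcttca

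The C3 window held a C/EBP match (TTGCGAAA) that began 104 bases before the start. A PU.1 match was present in the windows of Anxa3 (10 bases before the start, plus strand), Trem2 (30 before, minus strand) and Ctss (16 before, minus strand). Trem2 also held a C/EBP match (TTGCTCAA) at base 33 after the start, and Ctss an ISRE match (TTTCGGTTTC, minus strand) 36 bases before it. The Dnase1l3 window held none of the 6. Among all 33469 promoter windows, 12.4% held a PU.1 match, 10.6% a C/EBP match, 8.87% a GAS match, 5.37% an NF-kB match, 3.92% an ISRE match and 0.0269% an estrogen response element. Of 20 genes with a positive slope on C3 that had a promoter entry, 6 held the PU.1 letters, 5 those of C/EBP, 4 of ISRE, 2 of GAS, 1 of NF-kB and 0 of the estrogen response element. Of 7 genes with a negative slope, 4 held the letters of C/EBP, 2 of ISRE, 1 of PU.1, 1 of NF-kB and 0 of GAS or the estrogen response element. These are matches of letters and not binding sites.

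By the measures given here the arrays were alike, with 1 exception. Median intensity was 122.6 to 141.45 over the 43 arrays, and the mean correlation of an array with the others was 0.967 to 0.976 except for animal 43, on the high side, at 0.927. The 3′ minus 5′ level of the actin control probe sets was 1.97 in animal 43 and 1.26 to 1.67 in the others. Prolactin (Prl), the lactotroph hormone, was among the brightest genes as befits the tissue, at 15.40 to 15.75 on the low side and 15.48 to 16.14 on the high side (difference 0.09 ± 0.06 (SE), adjusted p = 0.443).

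Between the 14 high and 14 low C3 arrays, 986 of 31041 probe sets (3.18%) were higher and 825 (2.66%) lower on the high side (5.83% in all) at an adjusted p under 0.05 in limma, which is what "called" means below. With 1 probe set for each of 14216 singly named genes, 687 (4.83%) were called higher and 488 (3.43%) lower. Between animals 23 to 43 and animals 1 to 22, whatever their C3, 2226 probe sets (7.17%) were called higher and 1933 (6.23%) lower, and 1534 of the 1811 probe sets called between the C3 sides were also called there in the same direction. With the number range as a term, 8 probe sets (0.0258%) were higher and 2 (0.00644%) lower on the high C3 side (0.0322% in all), a fit in which only animals 18, 31 and 36 set C3 and number range apart, and without animal 43 the counts were 13 and 5. Within animals 1 to 22 (1 array against 12) 14 were higher (0.0451%) and 15 lower (0.0483%), and within animals 23 to 43 (13 arrays against 2) 4 were higher and 4 lower (0.0129% each). The slope of each level on the level of C3 over all 43 arrays, with the number range as a term, uses more of the data and gave 36 probe sets with a positive (0.116%) and 13 with a negative slope (0.0419%), of which 44 of 49 were also called between the C3 sides. The 49 were chosen on these same 43 arrays, so no count of signs within parts of the arrays is read as support for them. Fitted apart, the slope was positive for 15 probe sets (0.0483%) and negative for 1 (0.00322%) in animals 1 to 22, and positive for 9 (0.029%) and negative for 0 in animals 23 to 43. A test of whether the slope differed between the number ranges called 0 probe sets by limma, with 1581 at an unadjusted p under 0.05.

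The 49 probe sets stand for 38 singly named genes, 28 with a positive slope (0.197% of named genes) and 10 with a negative slope (0.0703%), beside 3 probe sets shared by several genes and 5 unnamed here. They are named because of their values, so their relation to C3 describes these arrays. Genes known from macrophages or microglia were present in both directions, with P2ry12, Trem2 and Csf1r among those higher with more C3 and Mmp12, Dnase1l3 and Ms4a7 among those lower. In the text below, a side difference with the term is one from the fit in which 3 animals set C3 and number range apart.

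P2ry12, an ADP receptor of microglia, followed C3 most closely within the number ranges. Its level was 7.96 to 9.54 (median 8.56) on the 14 low arrays and 9.46 to 10.73 (median 10.18) on the 14 high arrays. Only the ends of the groups touched, with 13 of 14 high arrays above every low array. The difference was 1.51 ± 0.14 (SE), 2.85-fold, with adjusted p = 7.23e-08 by limma, and with the number range as a term it was 1.75 ± 0.22 (adjusted p = 0.000328). The 3 animals out of step with their number range kept to the pattern, since animal 18, high in C3, was at 10.20 and animals 31 and 36, low in C3, were at 8.41 and 8.10. The slope was 0.48 ± 0.06 per unit of C3 level in animals 1 to 22 and 0.68 ± 0.10 in animals 23 to 43 (adjusted p = 0.0056 and 0.0039). The other P2ry12 probe set gave a difference of 1.00 between the sides (adjusted p = 0.000359).

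Trem2, a lipid-sensing receptor of macrophages and microglia, was dim, and its probe set lay below the median level of all probe sets. It was at 4.34 to 7.15 (median 5.02) on the low side and 6.26 to 7.76 (median 6.85) on the high side, a difference of 1.63 ± 0.23 with adjusted p = 0.000113. Both sides overlapped, with 12 of 14 low arrays below every high array. Animal 18 was at 7.10, and animals 31 and 36 at 4.55 and 4.90. The slope with the number range as a term was 0.72 ± 0.08 (adjusted p = 3.82e-07), the steepest of the 28 genes, and another, dimmer Trem2 probe set gave a slope of 0.12 (adjusted p = 0.826). Gpr84, a receptor for medium-chain fatty acids on myeloid cells, was likewise dim and had a difference of 1.53 ± 0.22 (adjusted p = 0.0001) and a slope of 0.54 ± 0.08 (adjusted p = 0.00016). With the term the side differences were 1.99 ± 0.37 for Trem2 and 1.84 ± 0.35 for Gpr84 (adjusted p = 0.0407 for both).

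Anxa3, an annexin abundant in microglia and neutrophils, was at 10.26 to 10.75 (median 10.49) on the low side and 11.14 to 11.95 (median 11.44) on the high side. The groups did not overlap, as was the case for 11 of all probe sets (0.0354%) with the high side above. Its difference was 0.92 ± 0.08 (adjusted p = 2.56e-08), and 0.88 ± 0.12 with the number range as a term (adjusted p = 0.00196). Anxa3 has 4 probe sets, of which 3 were called higher and the dimmest was not (difference -0.17, adjusted p = 0.633). Ctss, the lysosomal protease cathepsin S that trims the invariant chain of MHC class II, ran from 11.24 to 12.04 (median 11.71) on the low side and from 12.29 to 12.91 (median 12.51) on the high side. There was again no overlap, and the difference was 0.86 ± 0.08 (adjusted p = 1.38e-07), or 0.74 ± 0.13 with the term (adjusted p = 0.0176).

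Csf1r, the receptor for the macrophage growth factor, was at 8.92 to 9.83 (median 9.22) on the low side and 9.60 to 10.19 (median 10.02) on the high side. Of the 14 high arrays 12 lay above every low array, and the difference was 0.72 ± 0.09 (adjusted p = 1.05e-05). Its slope was 0.21 ± 0.04 in animals 1 to 22 and 0.28 ± 0.05 in animals 23 to 43. With the number range as a term the side difference was 0.66 ± 0.14 (adjusted p = 0.1) and was not called, and the slope with the term was called (adjusted p = 4.51e-06).

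Other receptors and surface proteins with a called positive slope were Fcrl2, an Fc receptor-like protein of lymphoid and myeloid cells (side difference 0.71 ± 0.12, and 1.12 ± 0.17 with the term, adjusted p = 0.0034), Fcgr2b, the inhibitory Fc receptor (1.18 ± 0.20, adjusted p = 0.000689), Tmem119, a microglial membrane protein (1.13 ± 0.15, adjusted p = 3.4e-05), Slc2a5, the fructose transporter of microglia (1.04 ± 0.14, adjusted p = 8.35e-05), and Adgre1, an adhesion receptor that marks rodent macrophages (0.63 ± 0.12, adjusted p = 0.00222). On the high side all 14 Slc2a5 arrays lay above every low array. With the term the side differences of the last 4 were 1.48 ± 0.32 for Fcgr2b, 0.69 ± 0.22 for Tmem119, 0.98 ± 0.24 for Slc2a5 and 0.77 ± 0.20 for Adgre1, none called (adjusted p = 0.114, 0.69, 0.214 and 0.287). Other genes with a called positive slope were Npc2, a cholesterol carrier of the lysosome (0.55 ± 0.08), Cst3, the cathepsin inhibitor cystatin C (0.46 ± 0.05), Lamp2, a lysosomal membrane protein (0.21 ± 0.05), Apoe, an apolipoprotein (0.54 ± 0.13), and Pltp, which transfers phospholipids (0.72 ± 0.13). All 5 were called between the sides, and their slopes with the number range as a term had adjusted p = 0.00191, 0.0087, 0.0371, 0.011 and 0.00016 in that order. With the term their side differences were 0.44, 0.42, 0.24, 0.54 and 1.04, none called (adjusted p = 0.511, 0.0633, 0.794, 0.903 and 0.0599). The rest of the 28 included Plac8 (1.42 ± 0.19), Plek, the platelet and leukocyte protein pleckstrin (0.89 ± 0.13), Golm1, a Golgi membrane protein (0.95 ± 0.13), Pea15, a cytosolic phosphoprotein (0.81 ± 0.08), Mpzl2 (0.88 ± 0.14), Dapl1 (0.86 ± 0.14), Crot, a peroxisomal acyltransferase (0.60 ± 0.09), Eeig2 (0.45 ± 0.10), Ldhb, a lactate dehydrogenase subunit (0.44 ± 0.08), and Tmod2 (0.40 ± 0.12). None of these 10 was called between the sides with the term, where Plac8 had the smallest adjusted p (0.074) and Tmod2 the largest (0.978). Oplah and Nek6 had called slopes but not called side differences (0.28 ± 0.10 with adjusted p = 0.0952 and 0.21 ± 0.07 with adjusted p = 0.0916). Further probe sets of Crot, Lamp2, Apoe, Pea15, Eeig2 and Tmod2 had no called slope, and the further one of Golm1 did (0.28, adjusted p = 0.000374).

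**Figure D2:**
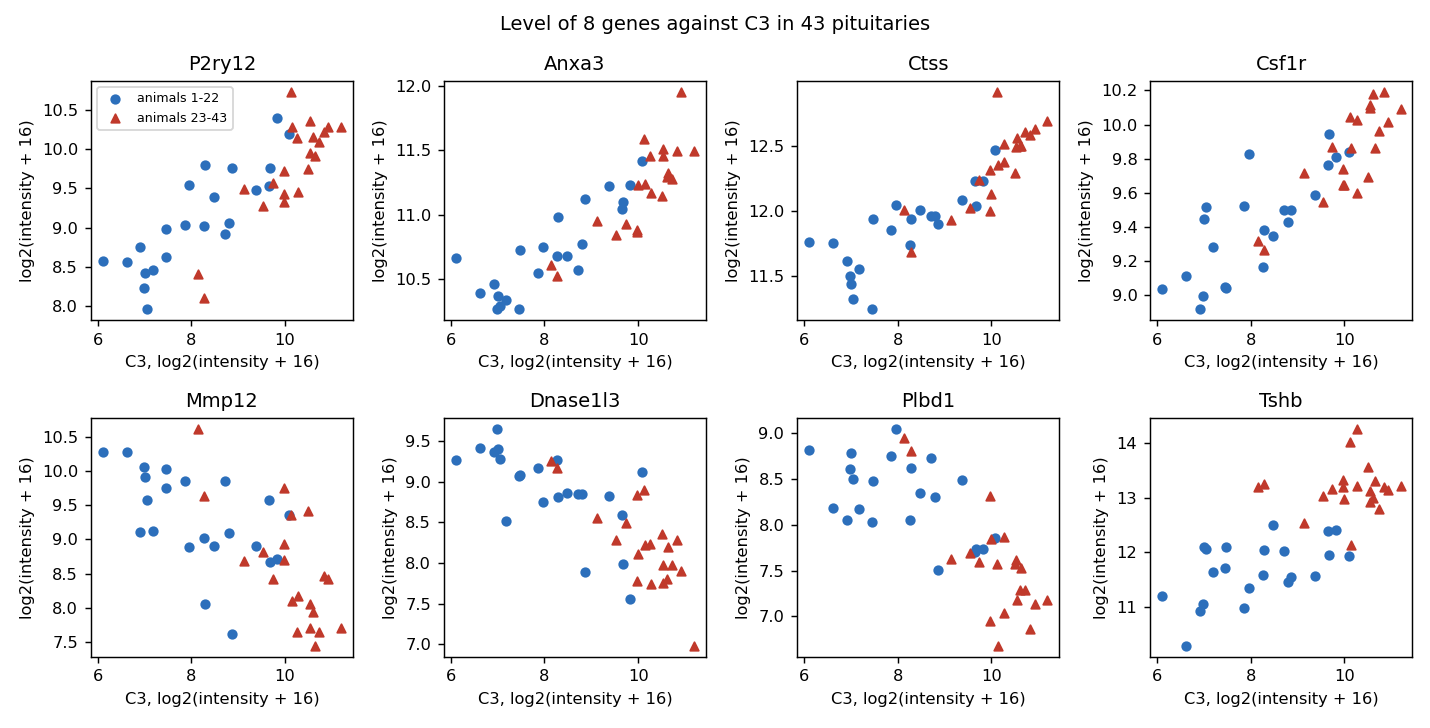
Level of 8 genes, log2(intensity + 16) on the vertical axes, against the level of C3 on the horizontal axes, for 43 arrays, with animals 1 to 22 as blue circles and animals 23 to 43 as red triangles. Among the symbols of either kind, the slope on C3 is positive for P2ry12, Anxa3, Ctss and Csf1r and negative for Mmp12, Dnase1l3 and Plbd1. Tshb runs from 10.28 to 12.49 in the circles and from 12.12 to 14.27 in the triangles, with a small overlap. Its slope on C3 is 0.26 in the circles and 0.04 in the triangles, neither called.

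The 10 genes with a called negative slope included several known from macrophages and other antigen-presenting cells. Dnase1l3, a secreted DNase of macrophages and dendritic cells, was at 8.52 to 9.65 (median 9.26) on the low side and 6.98 to 9.12 (median 8.09) on the high side. Of the high arrays 12 of 14 lay below every low array, and the highest of them was animal 18. The difference was -1.09 ± 0.15 (adjusted p = 0.0001 by limma), and the slope was -0.37 ± 0.06 (adjusted p = 0.000394). With the term the side difference was -0.80 ± 0.24 (adjusted p = 0.658). Plbd1, a phospholipase B-like lysosomal protein, was at 8.03 to 9.05 (median 8.56) on the low side and 6.68 to 7.86 (median 7.28) on the high side. The groups did not overlap, as was the case for 4 of all probe sets (0.0129%) with the high side below. The Plbd1 difference was -1.18 ± 0.13 (adjusted p = 3.63e-06), and -1.24 ± 0.22 with the number range as a term (adjusted p = 0.0176), whereas a dimmer probe set of the gene gave -0.06 (adjusted p = 0.905).

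Mmp12, the macrophage elastase, ran from 8.88 to 10.62 (median 9.80) on the low side and from 7.44 to 9.41 (median 8.08) on the high side, a difference of -1.48 ± 0.22 (adjusted p = 0.000206). Overlap was small, with 11 of 14 high arrays below every low array, but animal 18, high in C3, was at 9.35. In the 15 middle arrays its slope had the opposite sign (0.24 ± 0.26, adjusted p = 0.97). Pilra, an inhibitory receptor of myeloid cells, differed by -1.03 ± 0.12 (adjusted p = 9.55e-06), and Ms4a7, a membrane protein of macrophages, by -0.72 ± 0.13 (adjusted p = 0.00124). With the term the side differences were -1.39 ± 0.37 for Mmp12, -0.71 ± 0.18 for Pilra and -0.83 ± 0.21 for Ms4a7, none called (adjusted p = 0.372, 0.33 and 0.3). Clec10a, a galactose-type lectin of macrophages and dendritic cells, was not called between the sides (-0.45 ± 0.17, adjusted p = 0.121) but was with the number range as a term (-1.27 ± 0.20, adjusted p = 0.00516), where animal 18 was at 6.09 and animals 31 and 36 at 8.39 and 8.54. The other 3 genes were dim, and their differences were -1.65 ± 0.18 for Pla2g2d, a secreted phospholipase, -1.07 ± 0.17 for Tnfrsf14 and -1.36 ± 0.20 for the nucleoside transporter Slc28a2, with slopes called at adjusted p = 0.0261, 0.00898 and 0.022 and side differences with the term of -1.10, -1.30 and -1.44, none called (adjusted p = 0.214, 0.099 and 0.158). Sostdc1, a secreted antagonist of BMP and WNT signals, differed by -0.67 ± 0.13, and its slope was -0.40 ± 0.06 in animals 1 to 22 and -0.15 ± 0.11 in animals 23 to 43 (adjusted p = 0.007 and 1). With the term its side difference was -0.42 and not called (adjusted p = 0.937 by limma).

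The macrophage and monocyte list was split rather than shifted. Of its 19 measured genes, 4 were called higher (Csf1r, Adgre1, Fcgr2b and Trem2) and 4 lower (Mrc1, Cd14, Cd163 and Fcgr3a), against 4.83% and 3.43% of all named genes, and the median difference was -0.02 against 0.01 over all 14216 genes. Of these, the 4 higher genes and none of the 4 lower ones had a called slope with the number range as a term. The mean level of the list was 9.03 to 9.89 on the low arrays and 9.18 to 9.53 on the high arrays. Mrc1, the mannose receptor, ran from 7.85 to 9.62 on the low side and from 7.57 to 8.48 on the high side, and its difference of -0.83 ± 0.14 (adjusted p = 0.000514) became -0.54 with the term (adjusted p = 0.903). Cd163, the haptoglobin-hemoglobin receptor, was dim and differed by -1.39 ± 0.28 (adjusted p = 0.00323), and by -0.49 ± 0.41 with the term (adjusted p = 0.977). The other 11 members of the list were not called by limma. Among them were Cd68 (-0.34 ± 0.11, adjusted p = 0.066), Aif1 (0.24 ± 0.08, adjusted p = 0.088), Tyrobp (0.35 ± 0.14, adjusted p = 0.15) and Fcer1g (0.03 ± 0.09, adjusted p = 0.88). In bulk tissue, fewer cells of a type and less RNA per cell cannot be told apart.

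A list of 17 genes associated with microglia was added after the values were seen and is no independent evidence. Of its 13 measured members, 10 were called higher (P2ry12, Tmem119, Gpr34, Sall1, Trem2, Slc2a5, Csf1r, Ctss, Gpr84 and C1qa) and 0 lower, against 4.83% and 3.43% of all named genes, with a median difference of 0.96, and 7 had a called positive slope with the number range as a term. The mean level of the 13 was 8.49 to 9.15 on the low arrays and 9.36 to 9.96 on the high arrays. Gpr34, a lysophosphatidylserine receptor, ran from 6.36 to 8.23 on the low side and from 7.59 to 9.46 on the high side, and differed by 1.32 ± 0.19 (adjusted p = 0.000111). Sall1, a transcription factor of microglia, ran from 6.00 to 7.27 against 7.30 to 8.15 without overlap, and differed by 0.96 ± 0.12 (adjusted p = 3.9e-05). With the term the side differences were 1.49 ± 0.31 and 0.75 ± 0.20 (adjusted p = 0.0742 and 0.39), and neither slope with the term was called (adjusted p = 0.14 and 0.24). Cx3cr1, the fractalkine receptor, at 0.31 ± 0.10 (adjusted p = 0.079), and Olfml3, at 0.02 ± 0.04 (adjusted p = 0.82), were not called between the sides.

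Several of the largest differences between the C3 sides were small in the fit with the number range as a term. Among called genes above the median level of all probe sets, the 12 with the largest positive difference included 4 with a called slope with that term (P2ry12, Plac8, Fcgr2b and Tmem119), and the 12 with the largest negative difference likewise 4 (Mmp12, Plbd1, Dnase1l3 and Pilra). Dimmer genes with a called slope, Trem2, Gpr84, Pla2g2d, Tnfrsf14 and Slc28a2, are not in these counts. Tshb, the beta subunit of thyrotropin, was at 10.28 to 13.25 (median 11.61) on the low side and 11.92 to 14.27 (median 13.17) on the high side. The groups overlapped, and the 3 animals out of step went with their number range, with animal 18 at 11.92 the lowest of the high side and animals 31 and 36 at 13.20 and 13.25. Its difference of 1.46 ± 0.27 (adjusted p = 0.0014) became 0.17 ± 0.31 with the term (adjusted p = 0.992). The neuropeptide Cartpt (1.45 ± 0.29), the membrane protein Gpm6a (1.37 ± 0.23), the steroid dehydrogenase Akr1c14 (1.32 ± 0.22), the matrix proteoglycan Dcn (1.12 ± 0.23) and 6330403K07Rikl (1.66 ± 0.30) were all called between the sides and had values of 0.26, 0.36, 0.40, 0.26 and 0.61 with the term, none called. S100a6, a calcium-binding protein, differed by 1.22 ± 0.25 and by 0.62 with the term, and its highest array was animal 43 at 12.47.

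Slc40a1, the iron exporter ferroportin, had the largest negative difference among called genes above the median level, from 7.90 to 10.96 (median 9.52) on the low side to 7.09 to 8.84 (median 7.94) on the high side. Animals 31 and 36 were at 8.36 and 7.90, the latter the lowest of the low side. The difference was -1.57 ± 0.25 (adjusted p = 0.000407), and -0.59 ± 0.34 with the term (adjusted p = 0.977). Nppc, the C-type natriuretic peptide, ran from 11.89 to 13.09 on the low side and from 10.63 to 12.51 on the high side, with animal 18 the highest of its side and animal 36 the lowest of its own. It went from -1.11 ± 0.16 (adjusted p = 0.00019) to -0.37 ± 0.21 (adjusted p = 0.965). Cadherin 13 (Cdh13, -1.27 ± 0.24), the matrix protein Chad (-1.24 ± 0.33), the transcription factors Bcl11b (-1.10 ± 0.24) and Tcfl5 (-1.02 ± 0.18), the collagen cross-linking enzyme Lox (-1.01 ± 0.15) and the potassium channel Kcnq5 (-0.99 ± 0.13) were called between the sides, and with the term were at -0.42, 0.14, -0.13, -0.21, -0.38 and -0.33, none called. Kcnq5 has 2 further probe sets, both dimmer, whose differences were 0.03 and 0.24 and not called.

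**Figure D3:**
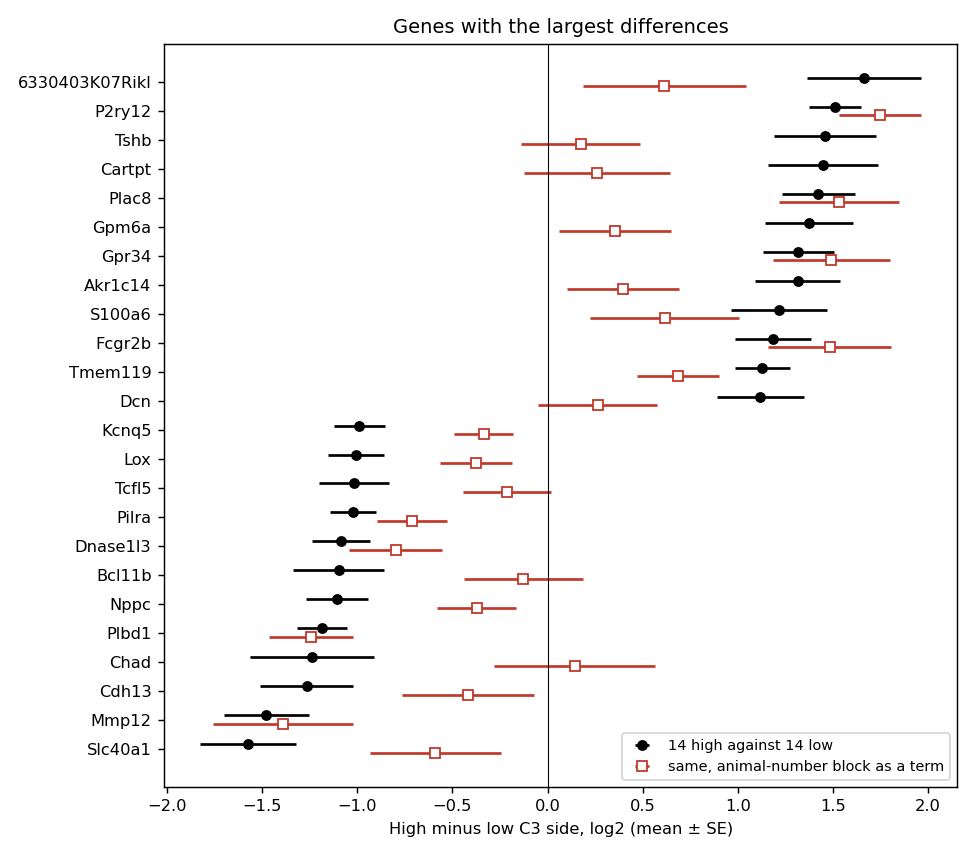
Difference of the high from the low C3 side, in log2 units, mean ± SE, for the 12 genes with the largest positive and the 12 with the largest negative difference among called genes above the median level, from 14 against 14 arrays (black circles) and from the same arrays with the animal-number range as a term (red open squares). P2ry12, Plac8, Gpr34, Fcgr2b, Mmp12 and Plbd1 have similar values in both fits, while Tshb moves from 1.46 to 0.17 and Slc40a1 from -1.57 to -0.59.

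Genes of hormone cells also differed between the number ranges. Over all named genes 4.83% were called higher and 3.43% lower on the high C3 side. Of 7 gonadotroph genes, 4 were called higher on that side (Fshb, Cga, Gnrhr and Nr5a1), and the list median was 0.62. However, all 7 were called higher in animals 23 to 43, against 7.17% of all probe sets. None of the 7 had a called slope with the number range as a term. Fshb, the beta subunit of follicle-stimulating hormone, differed by 1.03 ± 0.21 (adjusted p = 0.00311) and by -0.14 ± 0.19 with the term (adjusted p = 0.988), and Cga, the shared alpha subunit, by 0.60 ± 0.10 (adjusted p = 0.00055) and 0.19 with the term (adjusted p = 0.977). Of 4 thyrotroph genes 2 (Tshb and Gata2) were called higher, of 6 somatotroph genes 2 (Gh1, 0.60 ± 0.12, and Dlk1, 0.87 ± 0.21), and of 5 corticotroph genes 1 was lower (Pcsk2). Of 8 lactotroph genes, Agtr1b was higher and Drd2, the dopamine receptor, lower (-0.41 ± 0.10, adjusted p = 0.018). None of these calls was kept with the term.

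Some genes of cell division were lower on the high C3 side. Of 35 measured proliferation genes 0 were called higher and 7 lower (Mki67, Cdk1, Cenpf, Nusap1, Mcm6, Ube2c and Cdca3), against 4.83% and 3.43% of all named genes, and the list median was -0.25. Mki67, the proliferation antigen Ki-67, ran from 8.95 to 9.65 (median 9.13) on the low side and from 7.34 to 9.38 (median 8.78) on the high side, so that the median of the high side lay below every low array. Its difference was -0.45 ± 0.14 (adjusted p = 0.0473), and -0.32 with the term (adjusted p = 0.977). No member of the list had a called slope with the number range as a term.

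Of 31 measured complement genes other than C3, 2 were called higher (C1qa, 0.36 ± 0.08, adjusted p = 0.00708, and Cr1l, a membrane regulator of C3 convertases, 0.15 ± 0.04, adjusted p = 0.0187) and 0 lower, beside 4.83% and 3.43% of all named genes, and the median was 0.03. C1qa, a chain of the C1q recognition molecule, ran from 11.66 to 12.40 on the low side and from 12.07 to 12.73 on the high side, and neither slope with the term was called (adjusted p = 0.58 and 0.912). The other C1q chains were at 0.27 ± 0.09 (C1qb, adjusted p = 0.059) and 0.03 ± 0.07 (C1qc, adjusted p = 0.88). Among receptors for complement fragments, C3ar1, the C3a receptor, was dim and at -0.11 ± 0.17 (adjusted p = 0.772), C5ar1 was at 0.12 ± 0.10 (adjusted p = 0.583), and Itgam, a chain of the receptor for cleaved C3b, was dim and at 0.95 ± 0.32 (adjusted p = 0.0728). The 3 probe sets with a called positive slope that are shared by several genes all match complement genes. In the order below they match Cfb and C2, again Cfb and C2, and C4b and C4a. Since a value there cannot be given to 1 gene, these probe sets are not counted among the 31. Their slopes with the term were 0.19 ± 0.04, 0.21 ± 0.04 and 0.31 ± 0.07 (adjusted p = 0.00425, 0.0034 and 0.0261), and their side differences 0.41, 0.48 and 0.52 (adjusted p = 0.00989, 0.0114 and 0.136).

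Counts in the lists of immune signals and of other cell types stand beside 8.27% of all named genes called, 4.83% higher and 3.43% lower. Of 37 acute phase and NF-kB genes, 3 were higher (Lbp, Cp and Sod2) and 3 lower (Nfkb2, Vcam1 and Bcl3), with a median of -0.01. Of 36 interferon genes 1 was higher (Ifi35) and 1 lower (Irf7), and of 10 MHC class II and antigen presentation genes 1 was higher (Ctss), with a median of -0.17. No member was called among 17 T and natural killer cell genes, 8 B and plasma cell genes, 12 neutrophil and mast cell genes, none of which was above the median level, 5 erythroid genes and 16 ER protein folding genes. Of 16 folliculostellate and stem cell genes 4 were higher (S100b, Sox2, Aldh1a1 and Anxa1), of 11 endothelial genes 2 (Tek and Emcn), of 19 fibroblast genes 2 (Dcn and Lum), of 9 posterior lobe and neural genes 1 (Nefl), of 15 immediate early genes 1 (Ier2) and of 10 glucocorticoid-induced genes 1 (Tsc22d3). Of 16 estrogen-responsive genes 1 was higher (Agtr1b) and 1 lower (Greb1), and of 8 heme and iron genes 2 were lower (Slc40a1 and Cd163). With the number range as a term, Ctss was the only member of the lists in this paragraph with a called slope. The part of other cell types in the C3 comparison was not tested.

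**Figure D4:**
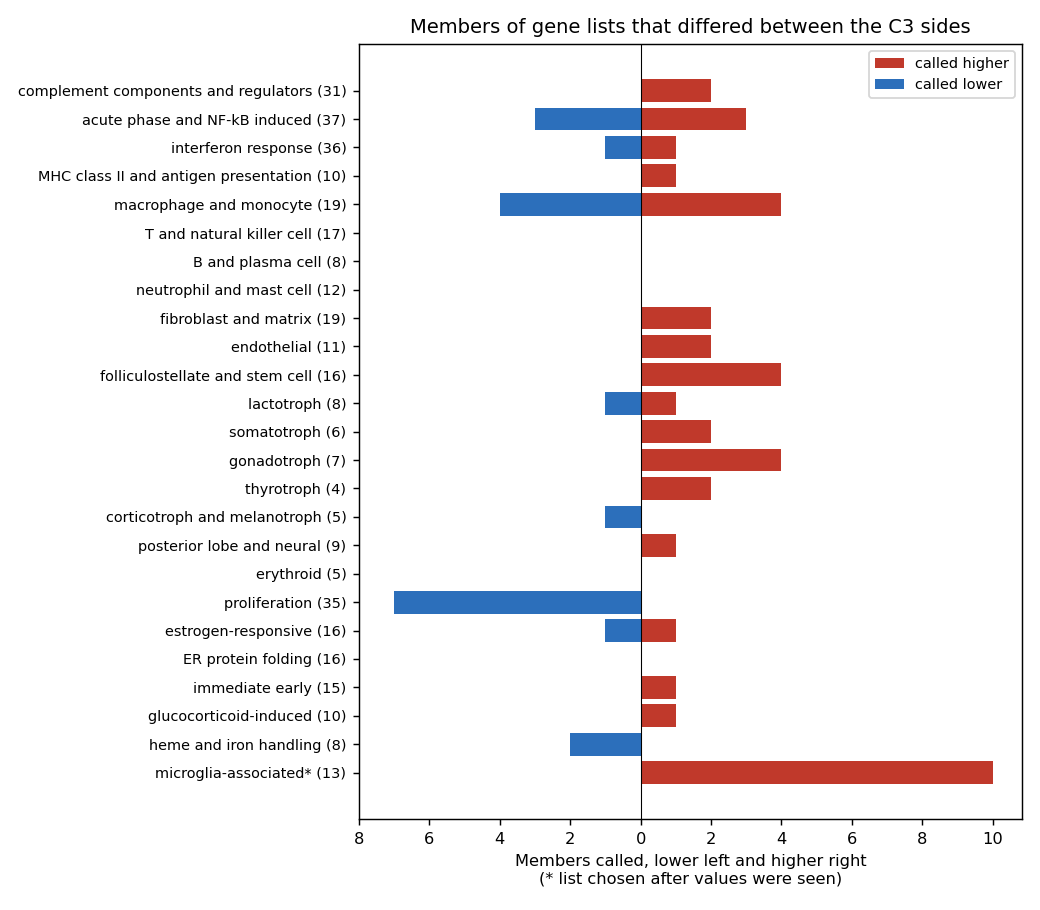
Number of members of each gene list called higher (red, to the right) or lower (blue, to the left) on the high C3 side, with the number of measured members in parentheses. The macrophage and monocyte list has 4 members on each side, the proliferation list 7 to the left and the microglia-associated list, chosen after values were seen, 10 to the right.

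In an F2 cross, genes next to each other tend to carry alleles from the same strain, so the genes around C3 on chromosome 9 were described. Among the 40 genes closest to C3 in RefSeq order that have a singly named probe set, 20 on either side, 2 were called (5.0%), against 8.27% of all named genes, and their differences ran from -0.38 to 0.63 with a median of -0.05. Adgre1, the fourth such gene after C3, was called higher (0.63 ± 0.12, adjusted p = 0.00222), with levels of 7.58 to 9.09 on the low side and 8.49 to 9.28 on the high side. Gpr108, the next gene after C3, was called lower (-0.38 ± 0.11, adjusted p = 0.0374), and its slope with the number range as a term was -0.05 (adjusted p = 0.915). Without animal 38 its adjusted p was 0.0571, which leaves 1 called neighbour, and with 21 arrays a side 4 neighbours were called. Trem2 is on the same chromosome as C3 but is not among the 40.

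**Figure D5:**
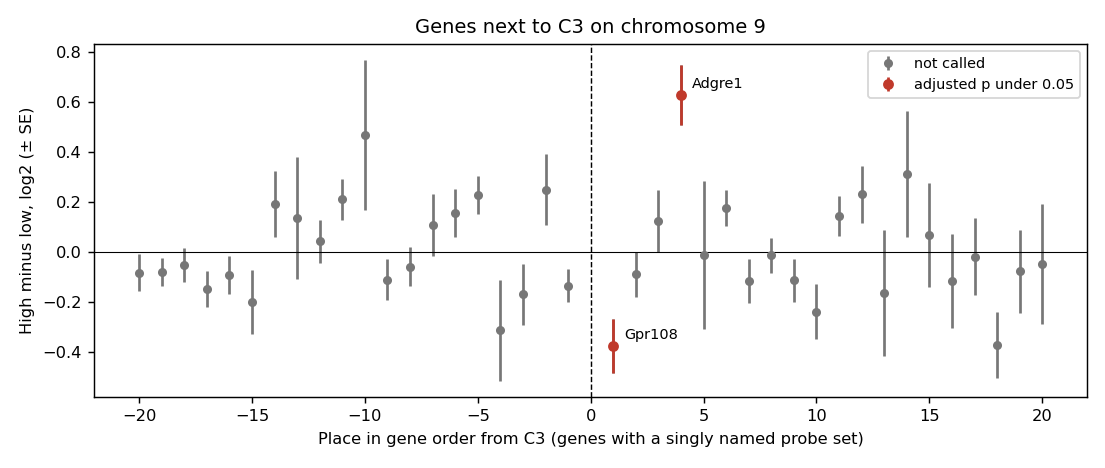
Difference of the high from the low C3 side, in log2 units with SE, for the 40 genes closest to C3 in gene order (horizontal axis, place before or after C3 at 0). Adgre1 and Gpr108, in red, are the called genes and the others lie on both sides of 0.

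By Pearson correlation with C3 over 43 arrays, given as a description without a test, the genes most alike were Pea15 (0.889), Anxa3 (0.884), Ctss (0.883), Csf1r (0.871), P2ry12 (0.849), Npc2 (0.831), Golm1 (0.820), Cst3 (0.818), Tmem119 (0.816) and Crot (0.808). The genes most opposed were Pilra (-0.824), the inositol transporter Slc2a13 (-0.801), Dnase1l3 (-0.795), Lox (-0.793), Fads1, a fatty acid desaturase (-0.775), Kcnq5 (-0.773), Plbd1 (-0.764), Slc38a5, a glutamine transporter (-0.759), Acp5, the acid phosphatase TRAP (-0.753), and Ptprz1, a receptor phosphatase (-0.739). All arrays share the scaling and the imbalance of animal numbers. Once each number range was centred on its own mean, the correlation stayed at 0.837 for P2ry12, 0.828 for Anxa3, 0.790 for Csf1r and 0.788 for Ctss, and was 0.603 for Crot and -0.365 for Ptprz1.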

How the data were processed

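RNA from 43 anterior pituitaries was hybridised to 1 Affymetrix array each. Per the labels, about 2 µg of total RNA gave biotinylated targets. The deposited intensity values, already scaled by the authors to a trimmed mean of 500.0 (2% left out at each end, as the values show), were used as given, and the algorithm and its version are not given in the sources used here. No detection calls were used, so that dim probe sets carry less certain differences. Precision is set by how many arrays there are. Of 31099 probe sets, 57 controls and C3 itself were left out and 31041 were tested.

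Values were taken as log2(intensity + 16), so that fold changes understate those of dim genes. The 14 highest and 14 lowest arrays by C3 were compared with limma 3.58.1 (R 4.3.3; lmFit and eBayes, two-sided, Benjamini-Hochberg over 31041 probe sets), with the number range (1 to 22 or 23 to 43) as a term in a further fit, and slopes on the C3 level were fitted over 43 arrays. The scripts were tested on simulated data with planted differences between the sides and none between the number ranges. That test does not bear on the overlap of the C3 sides with the number ranges. P-values measure the spread between animals, and a call is an association with C3.

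Genes were named from the platform annotation where a probe set has 1 symbol (20825 probe sets, 14216 genes, 99.7% of them matched to RefSeq), with 436 probe sets having several symbols and 9780 unnamed here. The brightest probe set stood for a gene. Genes named were the 12 with the largest difference in each direction among called genes above the median level (7.16), the 10 most and least alike to C3, members of 24 lists (399 genes, 350 measured), called neighbours of C3, and genes with a called slope. The members and lists were chosen with earlier results of these data known. Alternatives were the pseudocount (1 or 64), a filter on low values, quantile or median scaling, 10 or 21 arrays a side, leaving out animals 38 or 43, a mean-variance trend, number ranges as a term or apart, and slopes. Tables were handled with Python 3.11.15 and pandas 2.3.3.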

Additional observations from a re-analysis of the deposited data

How the results depend on the processing

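Counts of calls fell most with the animal-number range as a term, within 1 number range, and in the 15 middle arrays. With the term, only 3 animals set C3 and number range apart. Of the 1811 called probe sets 8 were also called with the term, and 1715 (94.7%) kept their sign. The 1811 were chosen on these same 28 arrays, so the kept signs are not read as support. Why calls were lost was not tested. The probe sets called higher and lower were 986 and 825. With the number range as a term the counts were 8 and 2 (13 and 5 without animal 43 as well). Within animals 23 to 43 they were 4 and 4. The slope with the term gave 36 and 13 (42 and 14 without animal 43). For the slope in animals 1 to 22 they were 15 and 1, in animals 23 to 43 9 and 0, and in the 15 middle arrays 0 and 0. The counts of each fit are its own and not all from the 1811. No count is given for the sides within animals 1 to 22, where the high side was 1 array. In the same order of fits, list members called higher (31) were 2 (2), 1, 5 (5), 3, 2 and 0. Those called lower (19) were 0 (0), 1, 0 (0), 0, 0 and 0. The neighbours of C3 called (2) were 0 (0), 0, 1 (1), 0, 0 and 0. A filter on low values left 15520 probe sets to test and gave 1262 lower probe sets and 32 lower list members. Why these counts rose was not tested. Without animal 38 the neighbours called were 1, and with 21 arrays a side 4. With array medians subtracted, 751 were higher and 908 lower, and the median of all probe sets shifted by -0.016. Under pseudocounts, quantile scaling, the mean-variance trend and animal 43 left out, the 50 genes followed 1 by 1 (the largest differences, the called slopes above the median level and the called neighbours) kept their side of the threshold, while list members called higher were 28 to 39 and lower 17 to 22.

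Signs that reversed were, among the 28 arrays within animals 23 to 43, Tshb (-0.0035), Cartpt (-0.040), Gpm6a (-0.00063), Dcn (-0.00091), Chad (0.39) and Bcl11b (0.22), and within animals 1 to 22, Cdh13 (0.12), Tcfl5 (0.21) and Tmod2 (-0.15). Chad was at 0.14 with the term, 0.21 with it and without animal 43, and 0.145 for the slope in animals 23 to 43, where S100a6 was at -0.025 and Bcl11b at 0.16. In the middle arrays, slopes reversed for Mmp12 (0.24), Oplah (-0.031), Sostdc1 (0.070) and Adgre1 (-0.055). The cause was not tested. No paired analysis was possible because the labels do not pair any samples.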

Other observations

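In the 15 middle arrays, which took no part in the comparison of the C3 sides, limma called 0 probe sets for a slope on C3, with 1761 at an unadjusted p under 0.05. Of these 15 arrays 9 came from animals 1 to 22 and 6 from animals 23 to 43, and this slope has no term for the number range, so that C3 and number range are not set apart in it. Of the 1811 probe sets called between the sides, 1570 (86.7%) had a middle slope of the same sign, against 59.8% of all probe sets. With the number range as a term, limma again called 0, with 1367 at an unadjusted p under 0.05, and the shares of the same sign were 57.2% (1036 of 1811) and 52.1%. Without the term, the middle slopes with their SE were 0.24 ± 0.07 for Csf1r, 0.35 ± 0.11 for Pltp, 0.16 ± 0.06 for Ctss, 0.16 ± 0.09 for Anxa3, 0.16 ± 0.16 for P2ry12, -0.66 ± 0.14 for Pilra and -0.50 ± 0.18 for Plbd1, none of them called.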
